A study of Rattus norvegicus with 84 samples.

Results

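The mRNA cargo of brain-derived extracellular vesicles (EVs) was compared with that of plasma-derived EVs in healthy rats. The comparison covered the 18782 annotated genes among the 26637 rows of the mRNA count table, in 6 of the 42 mRNA libraries of the series (84 libraries in all). The 3 rats were healthy adult male Sprague-Dawley animals with a wild-type (WT) genotype, which had neither an occlusion of the middle cerebral artery nor a transplant, and brain and plasma were taken from each of them. Brain 1 and plasma 1 are therefore libraries of one rat, and so on. Brain EVs were prepared from enzymatically dissociated frozen tissue by centrifugation, filtration and ultracentrifugation, and were then passed through size exclusion columns. Plasma EVs were filtered and purified on the same kind of column, and no ultracentrifugation is described for them. Effects of these steps cannot be told apart from those of the tissue. The labels call the blood fraction serum in the extraction text and plasma elsewhere, and plasma is used here. Long RNA libraries were made from total RNA with a SMARTer stranded kit, without unique molecular identifiers, so counts are reads and not molecules. Each EV preparation is a mixture from all cells of the tissue or of the circulation, so more vesicles from a cell type cannot be told apart from more RNA per vesicle. The study lists red cell debris and nucleic acids outside vesicles among the factors that complicate EV work in blood. Their part in these libraries was not tested.

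EVs are membrane particles that cells release from endosomes or directly from the plasma membrane, and they carry proteins, lipids and RNA of the cell of origin. In brain, neurons, astrocytes, oligodendrocytes and microglia all release them. In blood, platelets and red cells are known as abundant sources, and the liver, leukocytes and vessel walls contribute as well. A gene that only one of these cell types expresses can therefore mark the part of an EV preparation that came from that cell type.

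The 3 brain libraries held 19730248 to 28068838 counts, of which 7.11% to 20.9% fell on annotated genes. The 3 plasma libraries held 24655822 to 42197219 counts, of which 58.3% to 71.6% fell on annotated genes. The mean share was 13.9% ± 6.91 (SD, n = 3) in brain and 63.8% ± 6.97 in plasma (exact permutation test, two-sided p = 0.1, the smallest that 3 against 3 libraries allow). The annotated counts themselves ranged from 1403190 in brain 1 to 30215730 in plasma 1, so a gene without a read in brain is less well bounded than one without a read in plasma. Genes with at least 1 count numbered 10109, 14099 and 12966 in brain 1, 2 and 3 and 12708, 13661 and 11819 in plasma 1, 2 and 3 (exact permutation p = 0.9). Thinned to the depth of brain 1, the plasma libraries kept 11500 to 13123 genes and brain 2 and brain 3 kept 13877 and 12791. The 10 most abundant genes took 3.66% to 4.60% of the annotated counts in brain and 12.5% to 14.6% in plasma. Pearson r of log counts across genes, which are not independent replicates, was 0.85 to 0.91 within brain, 0.80 to 0.87 within plasma and 0.14 to 0.22 between them.

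Of the 13771 genes with enough counts to be tested, 4747 differed between brain and plasma EVs. Here and throughout, called means over 1.5-fold apart with an adjusted p under 0.05 in edgeR's quasi-likelihood test, with the Benjamini-Hochberg adjustment taken over all tested genes. Of these, 2318 were higher in brain (16.8% of the tested genes) and 2429 were higher in plasma (17.6%). The 3 brain values of a gene did not overlap its 3 plasma values in 8296 tested genes (60.2%) and in 4743 of the 4747 called genes. With the rat as a block, 1257 genes were called higher in brain (9.13%) and 1089 higher in plasma (7.91%), and 2325 of these 2346 genes were also called without the block. Without brain 3 the total fell to 2792 genes, 1430 of them higher in brain and 1362 in plasma. Levels are given as CPM, the usual depth-scaled counts, here relative to the annotated counts with TMM scaling, and a positive log2 fold change means higher in brain. That scale compares each gene with the other annotated genes: the median log2 fold change of all tested genes was -0.285. When counts were divided by the total of annotated and new genes, the median moved to -1.96 and the split to 1215 genes higher in brain and 4505 higher in plasma, so that 21.2% of the calls were higher in brain instead of 48.8%. On FPKM the split moved further, and limma on log2(FPKM + 1) called 431 of 9252 tested genes higher in brain and 7319 higher in plasma. Counts of list members under limma are to be read against that split. A gene that was not called is not shown to be equal in the 2 preparations: of the 9024 such genes, 2365 had an estimate over 4-fold in one direction or the other.

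**Figure D1:**
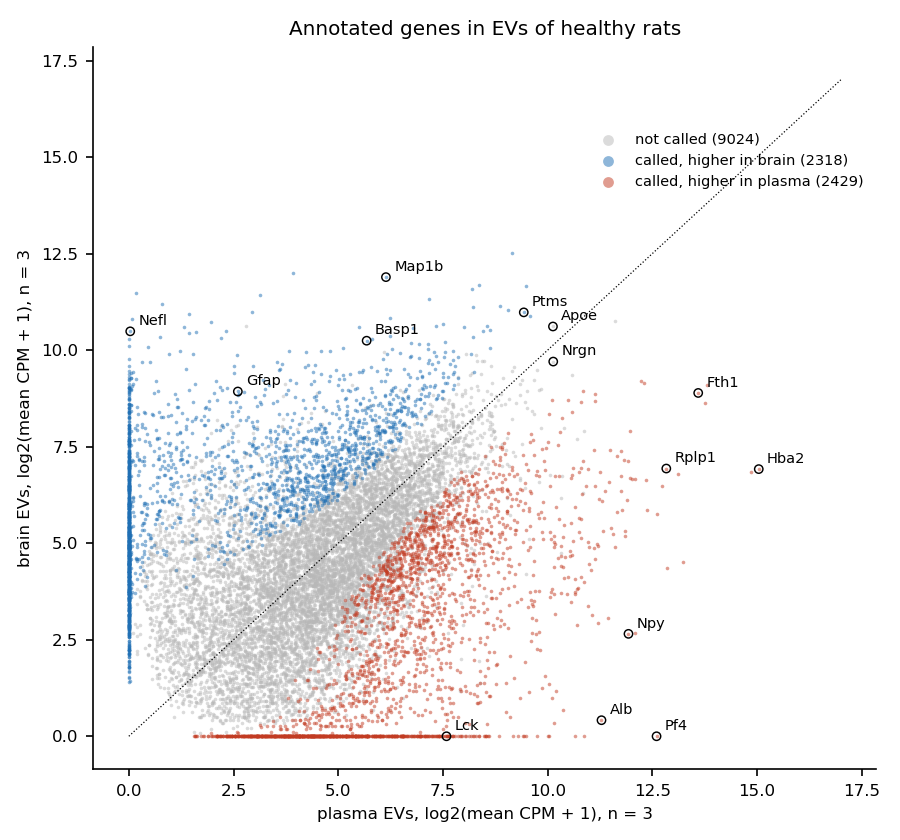
Each point is 1 of 13771 tested genes, with log2(mean CPM + 1) of the 3 plasma libraries on the x axis and of the 3 brain libraries on the y axis. Blue genes (2318) were called higher in brain, red genes (2429) higher in plasma and grey genes (9024) were not called, and the points along both axes are genes without a count in the other tissue.

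The differences were often a matter of presence. Among the called genes, 1536 were over 10-fold higher in brain and 1606 over 10-fold higher in plasma. No plasma library had a count for 798 genes that had 10 counts or more in every brain library, and no brain library had a count for 808 genes with 10 or more in every plasma library. By contrast, 7276 genes were detected in all 6 libraries, of 16617 detected in any. Transcript length moved with the direction of the calls. Relative length, the reads of a gene per unit of FPKM scaled to the typical gene, had a median of 1.72 over 2295 genes called higher in brain, 0.53 over 2429 genes called higher in plasma and 0.992 over 9013 genes that were not called. Its part in the result was not tested.

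The most abundant genes of the 2 preparations were of different kinds. By mean FPKM, a level per transcript length, the leading genes of brain EVs included LOC310926, Ptms (parathymosin, a small acidic nuclear protein), Snrnp70 (a protein of the splicing machinery), Apoe (the lipid carrier that astrocytes secrete), Basp1 (a membrane protein of growth cones), Camk2n1 (an inhibitor of CaM kinase II), LOC108352829, Calm3 (calmodulin) and Hsp90ab1 (a chaperone). Of these, 6 were called higher in brain, with log2 fold changes of 3.37 for LOC310926, 1.55 for Ptms, 4.18 for Snrnp70, 4.59 for Basp1, 3.77 for Camk2n1 and 3.33 for LOC108352829. Ptms was the least firm of them. Its levels were 1909, 2259 and 1880 CPM in brain and 670, 675 and 722 CPM in plasma, its adjusted p rose from 0.0124 to 0.0613 with the rat as a block, and its direction turned to -0.18 when scaled to the total of annotated and new genes. LOC310926 was no longer called without brain 1, brain 2 or brain 3, with log2 fold changes of 3.35, 3.52 and 3.21. Apoe was abundant on both sides, with 1267, 2050 and 1376 CPM in brain against 870, 1803 and 679 CPM in plasma. Its groups overlapped and it was not called (log2 fold change 0.49, adjusted p = 0.477), although it was called higher in brain without plasma 2, at 1.07. In plasma EVs the leading genes were globins (Hba2, Hba1, LOC100134871, Hbb), ribosomal protein genes, the iron storage gene Fth1, the cytoskeletal genes Actb and Tmsb4x and the platelet chemokine Pf4.

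Neuronal transcripts were prominent in brain EVs. Of 23 genes of the glutamatergic synapse, 21 were higher in brain, none was higher in plasma, and 11 had no count in any plasma library. With limma on log2(FPKM + 1), 14 of 17 were higher in brain and 1 in plasma. The median log2 fold change of the list was 11.08 with genes at 0 set at their lower bound, against -0.285 over all tested genes. Grin1, the obligatory subunit of NMDA receptors, had 594, 531 and 757 CPM in brain 1, 2 and 3 and no read in plasma. For a gene without reads in one tissue, the fold was bounded by letting that tissue hold 3 counts in all, and by that rule Grin1 was at least 11860-fold higher in brain. Slc17a7, the transporter that fills vesicles with glutamate, had 669, 644 and 526 CPM in brain, no read in plasma and a bound of at least 11440-fold. The AMPA receptor genes Gria1, Gria2, Gria3 and Gria4 were all without a read in plasma, with bounds from 1914-fold for Gria4 to 9214-fold for Gria2. These bounds cover counting error only.

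Scaffold genes of the postsynaptic density were as abundant in brain EVs as the receptors, and some were also present in plasma EVs. Shank1 had 1493, 1959 and 1911 CPM in brain and 4 reads in plasma 1 alone (log2 fold change 14.57, SE 1.13, adjusted p = 0.000871). Camk2a, the kinase most abundant in the postsynaptic density, had 802, 895 and 789 CPM in brain and 0.18, 0 and 0.53 CPM in plasma (log2 fold change 11.61, SE 1.08). Dlg4, which encodes the scaffold PSD-95, had 525, 699 and 586 CPM in brain against 19.4, 66.9 and 8.73 CPM in plasma, a 19.1-fold difference (log2 fold change 4.25, SE 0.81, adjusted p = 0.00838). Brain and plasma values were far apart in these 3 genes, and the plasma values of Dlg4 varied more among themselves than the brain values did. Shank3 was 8.56 times as abundant in brain EVs by the fitted fold change (log2 fold change 3.10, SE 0.57), with 388 to 2358 reads in every plasma library.

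Nrgn, the postsynaptic calmodulin-binding protein neurogranin, was the exception among glutamatergic genes. It had 854, 1024 and 620 CPM in brain and 444, 2679 and 244 CPM in plasma. The groups overlapped because plasma 2 lay above all brain libraries and the other plasma libraries below them. Nrgn was not called (log2 fold change -0.43, SE 0.87, adjusted p = 0.734), its direction turned to 0.22 when counts were scaled to the annotated total without TMM factors, and without plasma 2 it was called higher in brain with a log2 fold change of 1.35. Nrgn is also a known platelet transcript and stood in the platelet list used here. Plasma 2 held 3.37% of its annotated counts on platelet genes against 0.61% and 0.518% in plasma 1 and plasma 3, and the part of these transcripts in the level of Nrgn was not tested. Homer1, a scaffold of metabotropic receptors, was the other member not called (log2 fold change 4.41, SE 2.27, adjusted p = 0.179), with 214 reads in plasma 2 and none in plasma 1 and plasma 3.

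The machinery of transmitter release pointed the same way. Of 22 genes of synaptic vesicles and the active zone, 19 were higher in brain and none in plasma, with all 22 estimates positive (median log2 fold change 8.60). They took 1.12%, 1.38% and 1.18% of the annotated counts in brain 1, 2 and 3 and 0.0213%, 0.0133% and 0.0110% in plasma 1, 2 and 3, an 80.5-fold difference of the means. Bsn, which encodes the active zone scaffold bassoon, had 1907, 8146 and 4544 reads in brain and none in plasma, and was at least 25130-fold higher in brain. Not all release genes were missing from plasma EVs. Vamp2, the vesicle SNARE synaptobrevin, had 208, 512 and 348 CPM in brain against 71.4, 62.2 and 71.7 CPM in plasma, a 5.2-fold difference (log2 fold change 2.38, SE 0.43, adjusted p = 0.00703). Cplx2 (complexin) and Pclo (piccolo, a partner of bassoon) were also detected in every plasma library, with fold differences of 42.4 and 44.3. Sv2a, Sv2b and Amph had positive estimates of 4.48, 6.10 and 4.29 with adjusted p values of 0.0712, 0.067 and 0.07 and were not called. With the rat as a block Sv2b was called, and the release genes called higher in brain numbered 17.

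Genes of axons and dendrites held the largest share of brain EV reads among the neuronal lists. Of 23 genes of the axonal and dendritic cytoskeleton, 21 were higher in brain and none in plasma (median log2 fold change 8.52), and limma on log2(FPKM + 1) called 20 higher in brain and 2 in plasma. Together they took 2.54%, 2.93% and 2.53% of the annotated counts in brain and 0.0501%, 0.0384% and 0.0376% in plasma, a 63.4-fold difference of the means. Map1b and Map1a encode microtubule-associated proteins that bundle microtubules in axons and dendrites. Map1b had 2576, 4642 and 4170 CPM in brain against 44.2, 125 and 39.2 CPM in plasma (log2 fold change 5.77, SE 0.69, adjusted p = 0.00174). Map1a had 3459, 4951 and 3925 CPM in brain against 0.46, 39.8 and 2.08 CPM in plasma (log2 fold change 8.20, SE 1.84, adjusted p = 0.0145). Both were present in plasma EVs at a low level that did not approach the brain values, and plasma 2 was the highest plasma library for both. Map2, the dendritic member, had 1741, 2738 and 2573 CPM in brain and at most 1.38 CPM in plasma, a 3322-fold difference by the fitted fold change.

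The neurofilament genes, which encode the intermediate filaments of axons, were nearly restricted to brain EVs. Nefl had 1357, 1627 and 1317 CPM in brain, 2 reads in plasma 1 and none in the other plasma libraries (log2 fold change 15.01, SE 0.95, adjusted p = 0.000871). Nefh had no read in plasma and was at least 8157-fold higher in brain, and Nefm had 19 reads in plasma 2 alone. The kinesin genes Kif1a, Kif5a and Kif5c, motors of axonal transport, had log2 fold changes of 10.10, 9.16 and 8.47. Uchl1, an ubiquitin hydrolase abundant in neurons, had 237, 1047 and 681 reads in brain and 15 reads in plasma 2 alone. Basp1 stood apart as a neuronal gene that plasma EVs also carried, with 1077, 1316 and 1242 CPM in brain and 62.8, 58.1 and 29.7 CPM in plasma, a 24.1-fold difference (adjusted p = 0.0011). Dpysl2, a collapsin response mediator that leukocytes also express, had a log2 fold change of 0.75 (adjusted p = 0.144), and Tubb2b one of 0.73 (adjusted p = 0.405).

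Genes of GABAergic and striatal neurons were mostly higher in brain, at lower levels. Of 18 genes, 14 were higher in brain and 1 was higher in plasma, and 10 had no plasma read (median log2 fold change 9.02 with genes at 0 at their bound). With the rat as a block, 11 were higher in brain, and limma on log2(FPKM + 1) called 7 of 8 higher in brain. Gad2 and Slc32a1, which make GABA and load it into vesicles, had 190 to 464 and 80 to 196 reads in brain and none in plasma, with bounds of 1529-fold and 678-fold. Ppp1r1b, the phosphoprotein DARPP-32 of striatal projection neurons, had 393, 335 and 260 CPM in brain, no plasma read and a bound of at least 6001-fold. Gabbr1, a GABA-B receptor subunit, had 657, 707 and 939 CPM in brain and 0, 8.46 and 5.54 CPM in plasma (log2 fold change 7.38, adjusted p = 0.0181), and it was not called with the rat as a block (adjusted p = 0.0526) or without brain 3 (7.21).

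Npy, a neuropeptide of cortical interneurons, ran in the opposite direction. It had 0, 3.21 and 12.7 CPM in brain and 1241, 10036 and 430 CPM in plasma, with no overlap (log2 fold change -9.48, SE 2.01, adjusted p = 0.0121). Plasma 2, the library with the most reads on platelet genes, was also the highest for Npy, and the part of platelet transcripts in that level was not tested. Without brain 2, Npy was no longer called (log2 fold change -9.21). Sst, the other interneuron peptide, had 43, 297 and 179 reads in brain and none in plasma.

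Glial genes were less uniform. Of 18 genes of myelin and oligodendrocytes, 12 were higher in brain and none in plasma (8 with the rat as a block), and 9 had no plasma read. With limma on log2(FPKM + 1), 3 of 8 tested genes of the list were higher in brain and 3 in plasma. Over all 9252 genes tested in that setting, 431 were higher in brain and 7319 in plasma. Scaled to all rows or without plasma 2, 1 gene of the list was called higher in plasma. The share of the list in annotated counts was 0.338% ± 0.0394 (SD, n = 3) in brain and 0.0497% ± 0.00862 in plasma. Mbp, the basic protein of compact myelin, had 1468, 1582 and 1530 CPM in brain against 40.0, 244 and 44.9 CPM in plasma, a 13.9-fold difference (log2 fold change 3.80, SE 0.82, adjusted p = 0.0128). The transcription factors of the lineage, Sox10, Olig1 and Olig2, had no read in plasma. Cnp, an enzyme of noncompact myelin, was at 154, 214 and 135 CPM in brain and 222, 105 and 224 CPM in plasma, with a log2 fold change of -0.13 (adjusted p = 0.834) that changed sign when scaled to the annotated total without TMM. Mal, a proteolipid of myelin that T cells also express, had 26.9, 65.5 and 33.1 CPM in brain and 137, 19.8 and 315 CPM in plasma, overlapped and was not called (log2 fold change -1.91, adjusted p = 0.156), but was called higher in plasma without plasma 2 (-2.37).

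Astrocyte genes were also mostly higher in brain. Of 18 genes, 11 were higher in brain and none in plasma (median log2 fold change 5.03), and 7 were higher in brain with the rat as a block. With limma on log2(FPKM + 1), 6 of 11 were higher in brain and 3 in plasma, and scaling to all rows gave 9 and 1. Gfap, the intermediate filament of astrocytes, had 509, 456 and 494 CPM in brain and 2.94, 10.2 and 2.13 CPM in plasma, a 96.6-fold difference (adjusted p = 0.00163). Aqp4, the water channel of astrocyte endfeet, had 14.2, 182 and 91.7 CPM in brain and no read in plasma, a bound of at least 2255-fold. Sparcl1 and Cpe, which encode secreted proteins, were 37.5-fold and 28.6-fold higher in brain. Glul, glutamine synthetase, which many tissues express, had 325, 628 and 259 CPM in brain and 696, 483 and 946 CPM in plasma. Its groups overlapped and it was not called (log2 fold change -0.81, adjusted p = 0.234). Clu, Gja1, Ndrg2, Slc1a3 and Aldh1l1 were not called either, with log2 fold changes between -0.51 and 4.45.

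Microglial genes were scarce in the brain libraries. Of 15 genes of that list in the table, 12 could be tested, none was higher in brain and 2 were higher in plasma, near the share of all tested genes called higher in plasma (17.6%). With limma on log2(FPKM + 1), 5 of 8 were higher in plasma, in a setting that called 7319 of all 9252 tested genes higher in plasma. The brain share of the list was 0.0201%, 0.0115% and 0.0116% of annotated counts, below its plasma share of 0.0348%, 0.0272% and 0.0400%. Csf1r, the growth factor receptor of microglia and monocytes, had 18.95, 16.2 and 31.4 CPM in brain against 43.2, 57.97 and 118 CPM in plasma (adjusted p = 0.0501, not called). The 2 called genes were Aif1 (IBA1), with at most 5.61 CPM in brain and 53.6 to 245 CPM in plasma, and P2ry12, an ADP receptor of microglia that platelets also carry. P2ry12 had 2.11, 6.61 and 1.95 CPM in brain and 16.2, 253 and 18.2 CPM in plasma, so that plasma 2 again stood out (log2 fold change -4.71, SE 1.34, adjusted p = 0.0333). Neither call was firm. P2ry12 was not called without brain 1, brain 2, brain 3 or plasma 2 (log2 fold changes -4.47, -5.56, -4.40 and -2.24), and Aif1 was not called with the block (adjusted p = 0.0564) or without brain 3 (-5.70). In 18 stroke rats of the series, 9 of 15 microglial genes were higher in brain and 3 in plasma, and the difference between healthy and stroke rats was not tested.

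Vessel and ependymal genes were mixed. Of 16 tested brain vessel genes, 3 were higher in brain (Cldn5, Col4a1 and Col4a2) and 3 in plasma (Pecam1, Vtn and Vwf), near the shares of all tested genes in each direction (16.8% and 17.6%). The first 3 encode a tight junction protein of the blood-brain barrier and 2 chains of the basement membrane collagen, and the last 3 an endothelial adhesion molecule that platelets share, a plasma protein of the liver and the von Willebrand factor. Col4a2 had 300, 173 and 524 CPM in brain and 37.5, 19.7 and 26.9 CPM in plasma (log2 fold change 3.57, SE 0.55). Pecam1 had 0, 6.21 and 3.65 CPM in brain and 85.6, 84.6 and 109 CPM in plasma (log2 fold change -4.74, SE 1.03). These counts were small and moved with the setting. The 3 limma settings on FPKM called none higher in brain and 6 or 7 in plasma. Over all genes, these settings called 431 to 571 higher in brain and 6628 to 7648 higher in plasma. Scaling to all rows gave 1 vessel gene higher in brain and 4 in plasma. With the rat as a block 2 were higher in brain and 2 in plasma, without brain 2 only 1 was higher in brain, and without brain 3 only 1 was higher in plasma. Vwf was not called with the block (adjusted p = 0.0552) or without brain 1 (-2.84), brain 2 (-3.30) or brain 3 (-3.66), and Col4a1 was not called without brain 1 (2.13), brain 2 (2.27), brain 3 (1.82) or plasma 3 (2.15). Of 15 ependymal and choroid plexus genes only 6 could be tested, 2 of which (Foxj1 and Clic6) were higher in brain (1 with the block), and 11 had no plasma read. Ttr, which the choroid plexus and the liver both secrete, had 167, 201 and 38.4 CPM in brain and 388, 468 and 185 CPM in plasma, overlapped and was not called (log2 fold change -1.36, adjusted p = 0.164).

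**Figure D2:**
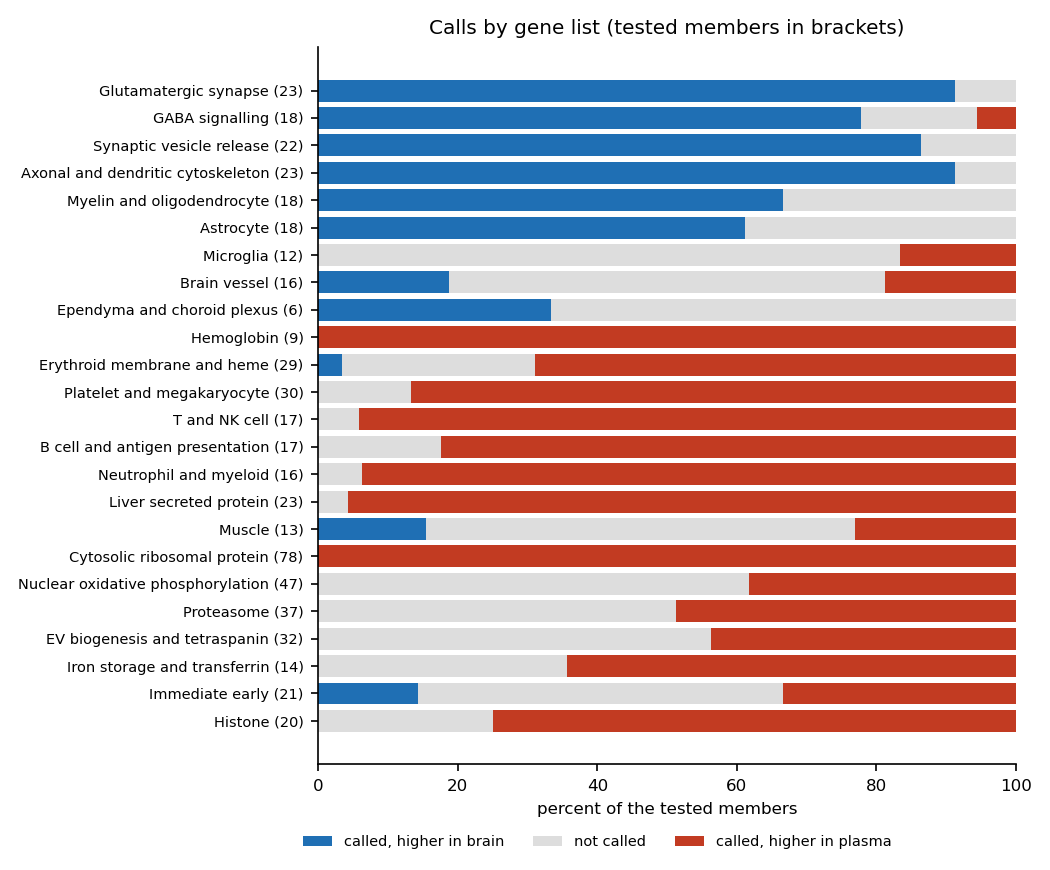
Bars show, for each gene list, the percent of its tested members that were called higher in brain (blue), not called (grey) or called higher in plasma (red), with the number tested in brackets. All 9 hemoglobin and all 78 ribosomal protein genes are red, and the 4 neuronal lists at the top are mostly blue.

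Red cell transcripts were abundant in plasma EVs. All 9 tested hemoglobin genes were higher in plasma, in every setting that kept them. They took 7.42%, 4.22% and 10.7% of the annotated counts in plasma 1, 2 and 3, and 0.0294%, 0.0228% and 0.0537% in brain 1, 2 and 3, a 211-fold difference of the means. Hba2, an alpha globin, had 92.7, 87.0 and 180 CPM in brain and 29412, 26851 and 44881 CPM in plasma (log2 fold change -8.13, SE 0.68, adjusted p = 0.000871). Hbb, a beta globin, had 7.90, 18.8 and 31.4 CPM in brain and 6663, 5378 and 10076 CPM in plasma (log2 fold change -8.56, SE 0.79). The brain libraries thus held globin reads. Hba1 and Hba2 are nearly identical, and how reads were divided between them is uncertain.

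Other red cell genes mostly moved the same way. Of 29 tested genes of the red cell membrane and of heme synthesis, 20 were higher in plasma, 1 was higher in brain, and 12 of the 32 listed had no brain read. Alas2, the erythroid enzyme that starts heme synthesis, had 1162, 611 and 1628 CPM in plasma and 4 reads in brain 2 alone (log2 fold change -11.68, SE 1.20, adjusted p = 0.00117). Slc4a1, the anion exchanger band 3, had 396, 153 and 783 CPM in plasma and 0, 3.41 and 4.62 CPM in brain (log2 fold change -7.28, SE 1.21). Ubb, a polyubiquitin gene of most cells that stands in this list and shares sequence with other ubiquitin genes, had 4908, 4447 and 5733 CPM in plasma and 451, 671 and 570 CPM in brain (log2 fold change -3.16, SE 0.39). Without plasma 3, 3 members were higher in brain. Sptb, the beta spectrin of red cells, was at 382, 505 and 455 CPM in brain and 289, 612 and 406 CPM in plasma and did not differ beyond its error (log2 fold change 0.04, SE 0.39), with the sign turned when scaled to the total of annotated and new genes. With the rat as a block, 15 members were higher in plasma.

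**Figure D3:**
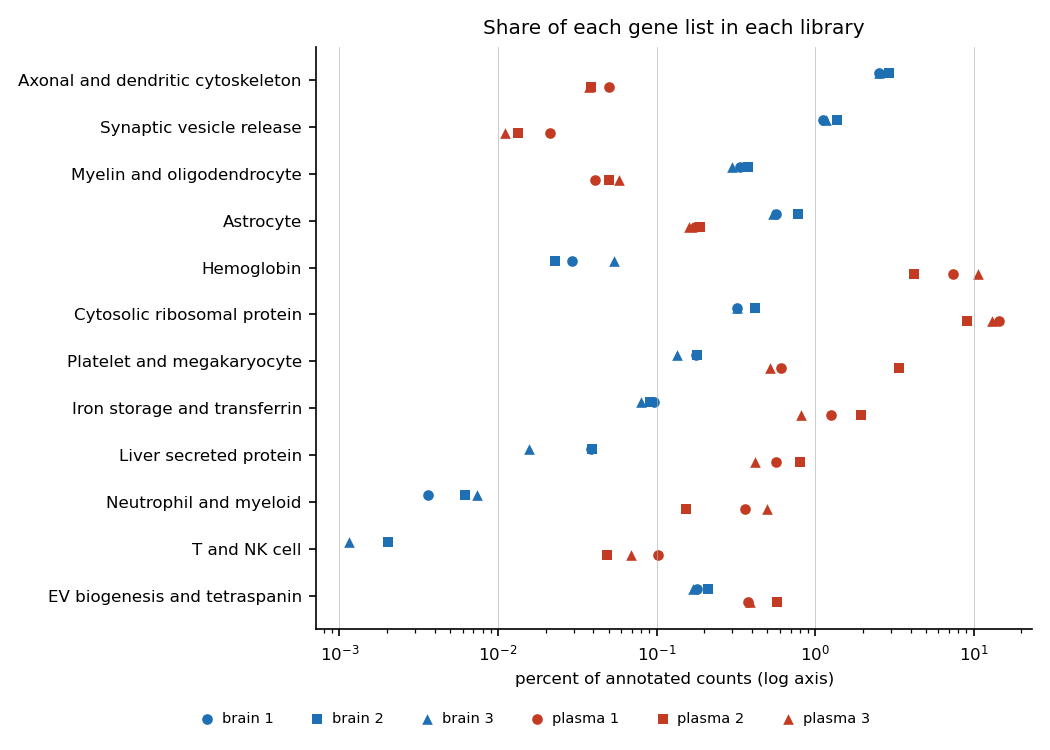
Points give the percent of annotated counts that each gene list took in each of the 6 libraries, on a log axis, with brain in blue, plasma in red and a marker shape for each rat. The T and NK cell share of brain 1 was 0 and is not drawn, and plasma 2 stands to the right of the other plasma libraries for the platelet list.

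Platelet transcripts were also higher in plasma EVs, with a wide spread among the 3 rats. Of 30 tested platelet and megakaryocyte genes, 26 were higher in plasma and none in brain, and 16 of the 32 listed had no brain read. Pf4, the chemokine platelet factor, had 1383, 16333 and 916 CPM in plasma 1, 2 and 3 and no read in brain, and was at least 13630-fold higher in plasma. Clec1b, the platelet receptor CLEC-2, had 535, 4646 and 398 CPM in plasma, no brain read and a bound of at least 4304-fold. Tubb1, the beta tubulin of the platelet marginal band, had 169, 1805 and 155 CPM in plasma, no brain read and a bound of at least 1600-fold. In each of the 3 genes plasma 2 was the highest library and plasma 1 and plasma 3 were close to each other. The list as a whole took 0.61%, 3.37% and 0.518% of annotated counts in plasma and 0.178%, 0.179% and 0.135% in brain, where most of the reads were Nrgn, Sparc and other genes that brain cells express.

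The number of platelet calls moved with the setting. Without brain 1, brain 2 or brain 3, only 13, 11 and 12 of the platelet genes were called higher in plasma, and DESeq2 called 13, whereas the block gave 20. Mmrn1, a platelet adhesion protein with 38.7, 2464 and 53.9 CPM in plasma and no brain read, was no longer called without brain 1, brain 2 or brain 3. Flna and Tln1, cytoskeletal linkers that platelets hold in quantity but many cells express, were at 467 to 2424 and 888 to 2957 CPM in plasma. Their brain levels were 85.0 to 144 CPM and 106 to 127 CPM, and both were called, with log2 fold changes of -3.46 and -3.90. The call of Flna was lost with the block (adjusted p = 0.0524) and without brain 1 (-3.35) or brain 2 (-3.32). Members not called were Nrgn, Gp5, P2ry1 and Sparc, with adjusted p values of 0.734, 0.0521, 0.067 and 0.253.

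Leukocyte genes were present in plasma EVs and nearly absent from brain EVs. Of 17 tested T and NK cell genes, 16 were higher in plasma, and 17 of the 20 in the table had no brain read. They took 0.103%, 0.0487% and 0.0686% of annotated counts in plasma and 0%, 0.00202% and 0.00115% in brain. Lck, the kinase of the T cell receptor, had 286, 134 and 153 CPM in plasma, no brain read and a bound of at least 794-fold. Ccl5, a chemokine of T cells and platelets, had 214, 273 and 115 CPM in plasma and a bound of at least 701-fold. Cd4, which monocytes and microglia also express, was not called (log2 fold change -3.42, adjusted p = 0.0748), but was called without plasma 2 (-3.83). With the rat as a block only 5 of the 17 genes were called, and 8 in a fit of all 42 mRNA libraries.

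Genes of B cells and antigen presentation and of myeloid cells were higher in plasma as well. Of 17 B cell and antigen presentation genes, 14 were higher in plasma (6 with the rat as a block and 9 in the fit of all 42 libraries). B2m, the light chain of MHC class I molecules, had 25.3, 44.3 and 35.8 CPM in brain and 1397, 8418 and 1152 CPM in plasma (log2 fold change -6.70, SE 1.03, adjusted p = 0.00399). Blnk, a linker of the B cell receptor, had 1496, 249 and 1788 reads in plasma and none in brain, a bound of at least 228-fold. Of 16 tested neutrophil and myeloid genes, 15 were higher in plasma (9 with the block), and 16 of the 24 in the table had no brain read. Lyz2, lysozyme, had 13.2, 4.41 and 13.6 CPM in brain and 798, 222 and 1441 CPM in plasma (log2 fold change -6.31, SE 0.92). Coro1a, an actin regulator of leukocytes, had 12.6, 38.9 and 36.3 CPM in brain and 1367, 663 and 1828 CPM in plasma (log2 fold change -5.45, SE 0.69). In contrast to the platelet genes, plasma 2 was the lowest plasma library for Lck, Lyz2 and Coro1a.

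Liver transcripts formed a further part of the plasma EV cargo. Of 23 genes of proteins that hepatocytes secrete or of hepatocyte enzymes, 22 were higher in plasma, and 14 had no brain read (median log2 fold change -7.78 with genes at 0 at their bound). Alb, albumin, had 1823, 4033 and 1632 CPM in plasma and 5 reads in brain 2 alone (log2 fold change -12.52, SE 1.31, adjusted p = 0.00119). Serpina1, alpha-1 antitrypsin, had 513, 924 and 278 CPM in plasma, no brain read and a bound of at least 1847-fold. Fga, Fgb and Fgg, the 3 chains of fibrinogen, had no brain read either, with bounds of 841-fold, 615-fold and 488-fold. Tf, transferrin, which oligodendrocytes also express, had 107, 127 and 84.4 CPM in brain and 995, 1898 and 832 CPM in plasma, an 11.7-fold difference. The liver share was 0.569%, 0.808% and 0.419% of annotated counts in plasma and 0.0386%, 0.0393% and 0.0157% in brain, with most of the brain reads on Ttr and Tf.

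Muscle genes gave no common direction. Of 13 tested genes, 2 were higher in brain (Pvalb, which interneurons express, and Tnnc2) and 3 in plasma (Myh6, Myh7 and Mb). These counts were near the shares of all tested genes in each direction (16.8% and 17.6%). Myh6 and Myh7, the cardiac myosin heavy chains, had 8.27 to 17.9 and 4.87 to 14.2 CPM in brain and 63.2 to 197 and 37.2 to 81.4 CPM in plasma, with log2 fold changes of -3.16 and -2.61. These 2 genes are close paralogs, so reads shared between them are uncertain. Myh7 was not called without brain 2, brain 3 or plasma 1 (-2.78, -2.26 and -2.26), and with the block no muscle gene was higher in brain. The skeletal muscle genes Acta1, Ckm and Tnni2 had at most 256 reads in any library and could not be tested.

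Ribosomal protein genes moved as a group and took the largest share of plasma reads among the lists. All 78 genes of cytosolic ribosomal proteins were higher in plasma, with log2 fold changes from -10.83 for Rps29 to -3.68 for Rps2, and the median was -6.11 against -0.285 over all tested genes. They remained 78 of 78 in each alternative that was run on counts, the rat block and the scaling to all rows included. Their share of annotated counts was 0.322%, 0.417% and 0.321% in brain and 14.6%, 9.15% and 13.2% in plasma, a 34.8-fold difference of the means. Rplp1, an acidic protein of the large subunit, had 142, 122 and 100.01 CPM in brain and 8362, 7396 and 6132 CPM in plasma (log2 fold change -5.91, SE 0.46). Rps23, a protein of the small subunit, had 47.9, 71.9 and 51.6 CPM in brain and 6309, 4815 and 4772 CPM in plasma (log2 fold change -6.53, SE 0.47). Ribosomal protein mRNAs are short, and ribosomal protein genes have many processed pseudogenes, so reads shared with such copies are uncertain.

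Other housekeeping groups leaned to plasma less evenly. Of 47 nuclear genes of oxidative phosphorylation, 18 were higher in plasma and none in brain (median log2 fold change -1.63). This count depended on the setting: 9 with the block, 9 without brain 3, 33 when counts were scaled to all rows and 47 in each of the 3 limma settings on FPKM. Cox4i1, a subunit of cytochrome oxidase, had 79.5, 107 and 69.1 CPM in brain and 519, 393 and 536 CPM in plasma (log2 fold change -2.50, SE 0.37). Sdha, a subunit of succinate dehydrogenase, had 140, 200 and 105 CPM in brain and 224, 125 and 205 CPM in plasma and was not called (log2 fold change -0.32, adjusted p = 0.584), with a sign that turned under the annotated total without TMM. None of 26 mitochondrially encoded genes was among the annotated rows. Their transcripts were therefore not compared here, which does not show that they were absent. Of 37 proteasome genes, 18 were higher in plasma and none in brain. The plasma count was 11 with the block, 34 when scaled to all rows and 36 or 37 in the 3 limma settings. Psme1, a subunit of the interferon-inducible activator, had 17.4, 20.04 and 14.1 CPM in brain and 850, 613 and 926 CPM in plasma (log2 fold change -5.53, SE 0.42), whereas Psmd2, a subunit of the regulatory particle, was at 131 to 200 CPM in brain and 137 to 199 CPM in plasma. Of 20 histone genes, 15 were higher in plasma and none in brain (10 with the block), among them the linker histone gene Hist1h1c with 34.7, 42.7 and 36.01 CPM in brain and 1503, 412 and 893 CPM in plasma.

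Genes of EV biogenesis and EV markers were examined in their own right. Of 32 tested genes of tetraspanins, ESCRT and vesicle trafficking, 14 were higher in plasma and none in brain (median log2 fold change -1.85). The plasma count was 9 with the block, 8 without brain 3, 22 with DESeq2, 23 when scaled to all rows and 30 or 31 in the 3 limma settings on FPKM. Without plasma 3, 2 genes were called higher in brain. Cd9, a tetraspanin that platelets carry in quantity, had 3.16, 9.22 and 7.54 CPM in brain and 125, 451 and 40.2 CPM in plasma (log2 fold change -4.92, SE 1.01, adjusted p = 0.0109), and it was not called without brain 3 (-5.01). Cd81, the tetraspanin of most cell types, had 14.7, 56.5 and 38.7 CPM in brain and 32.6, 54.6 and 43.7 CPM in plasma, overlapped and was not called (log2 fold change -0.25, SE 0.58). Tsg101, an ESCRT protein used as an EV marker, had 8.42, 26.05 and 11.4 CPM in brain and 86.1, 47.5 and 80.5 CPM in plasma (log2 fold change -2.21, adjusted p = 0.0262). It was not called with the block (adjusted p = 0.0954) or without brain 1 (-1.92), brain 3 (-2.03) or plasma 1 (-1.99). Canx, calnexin of the endoplasmic reticulum, which is used as a negative marker of EV protein, was at 187 to 351 CPM in brain and 208 to 398 CPM in plasma (log2 fold change -0.09, adjusted p = 0.886, with the sign turned under the annotated total without TMM). Rab27a, a GTPase of exosome secretion, had 0, 23 and 8 reads in brain and 6557, 2022 and 5122 in plasma (log2 fold change -6.64, SE 1.00). Its paralog Rab27b had 25.8, 39.5 and 12.9 CPM in brain and 71.5, 3725 and 43.6 CPM in plasma, did not overlap and was not called (adjusted p = 0.0538), and was called without plasma 1 (-6.06) or plasma 3 (-6.07). These values are transcript levels and say nothing of the marker proteins.

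Several genes with a place in stress responses were also compared. Hspa8, a constitutive chaperone that sorts cargo into vesicles, had 128, 207 and 184 CPM in brain and 1152, 734 and 930 CPM in plasma (log2 fold change -2.44, SE 0.39, adjusted p = 0.00448). Prdx6, a peroxidase, had 11.1, 19.03 and 17.8 CPM in brain and 101, 160 and 61.3 CPM in plasma (log2 fold change -2.74, SE 0.52, adjusted p = 0.00791). Park7, the redox protein DJ-1, had 15.3, 42.9 and 27.0 CPM in brain and 96.3, 69.2 and 75.5 CPM in plasma and was not called (log2 fold change -1.49, adjusted p = 0.053), although it was called without brain 2 (-1.92) or plasma 2 (-1.56). Jun was not called (log2 fold change 0.71, adjusted p = 0.2), with a sign that turned when scaled to all rows. Of 21 immediate early genes, 3 were higher in brain (Arc, Fosb and Egr2) and 7 in plasma (1 and 4 with the block, and 3 in plasma without brain 3). Of all tested genes, 16.8% were called higher in brain and 17.6% in plasma (9.13% and 7.91% with the block). The brain count of this list was thus near the share of all tested genes. Arc, which neurons transcribe on synaptic activity and which itself forms capsids, had 86.9, 210 and 120 CPM in brain, no plasma read and a bound of at least 2938-fold. Klf2, a factor of quiescent T cells and endothelium, had 14.7, 8.62 and 12.7 CPM in brain and 243, 80.4 and 210 CPM in plasma (log2 fold change -3.90, SE 0.56).

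Iron storage genes were high in plasma EVs. Of 14 genes of iron storage and transport, 9 were higher in plasma and none in brain (6 with the block). Fth1, the heavy chain of ferritin, had 438, 468 and 516 CPM in brain and 8314, 23985 and 4823 CPM in plasma (log2 fold change -4.71, SE 0.74, adjusted p = 0.00422). Ftl1, the light chain, had 48.4, 42.5 and 25.8 CPM in brain and 2986, 2427 and 2255 CPM in plasma (log2 fold change -6.04, SE 0.48). The 3 plasma libraries were close for Ftl1 but not for Fth1, whose highest value was again that of plasma 2. Ncoa4, the receptor that sends ferritin to autophagy, was 18.9-fold higher in plasma. Of 24 long noncoding RNAs listed only Snhg11 was among the annotated rows. It is a neuronal host gene of small nucleolar RNAs and had 406, 493 and 635 CPM in brain and 2 reads in plasma 3 alone (log2 fold change 13.39, SE 1.07).

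Members of one gene family could differ in direction. Of 18 families, 7 had members called in both directions, 5 in brain only, 4 in plasma only and 2 had no call. Among beta tubulins, the neuronal Tubb3 and the oligodendrocyte and neuronal Tubb4a were higher in brain, the platelet Tubb1 and the widely expressed Tubb5 were higher in plasma, and the other members were not called. Tubb3 had 133, 190 and 132 CPM in brain and 0, 0.42 and 0 CPM in plasma (log2 fold change 10.50, SE 1.48), while Tubb5 had a log2 fold change of -1.98 (SE 0.36). Tubb4a was not called without brain 2 (6.71) or brain 3 (7.12). Among glycolytic enzymes, Aldoc, the aldolase of astrocytes and Purkinje cells, had no plasma read and was at least 3684-fold higher in brain, and Aldoa was not called (log2 fold change -0.92, adjusted p = 0.108). The neuronal enolase Eno2 was higher in brain (log2 fold change 7.42, adjusted p = 0.0292, lost without brain 1, brain 2 or brain 3), and Eno1 was not called (-1.29, adjusted p = 0.117).

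Other cytoskeletal families included genes at high levels in both preparations. Actb, the common cytoplasmic actin, had 501, 704 and 447 CPM in brain and 13668, 14380 and 14688 CPM in plasma (log2 fold change -4.69, SE 0.46), and Tmsb4x, which binds actin monomers, had 72.7, 101 and 91.3 CPM in brain and 5821, 8978 and 5438 CPM in plasma (log2 fold change -6.25, SE 0.50). Both genes have processed pseudogenes, so their exact level is uncertain. Of 6 spectrins, 3 were higher in brain and none in plasma. Sptan1, the alpha spectrin outside red cells, had 2879, 3255 and 3519 CPM in brain and 669, 999 and 477 CPM in plasma (log2 fold change 2.17, SE 0.42), and its sign turned in the 3 limma settings on FPKM. Among nonmuscle myosins, Myh10, the form of neurons, had 1614, 1908 and 1928 CPM in brain and 80.2, 111 and 32.9 CPM in plasma (log2 fold change 4.61, SE 0.57), while Myh9, the form of blood cells, had 452, 372 and 567 CPM in brain and 1114, 3916 and 1712 CPM in plasma. Myh9 was called (log2 fold change -2.28, adjusted p = 0.0199), but not with the block (adjusted p = 0.0784) or without brain 1 (-2.26), brain 2 (-2.14) or brain 3 (-2.44). The 14 families drawn in the plot of paralogs have few members each, and leaving out single libraries moved most of their counts by 1 or 2 genes.

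**Figure D4:**
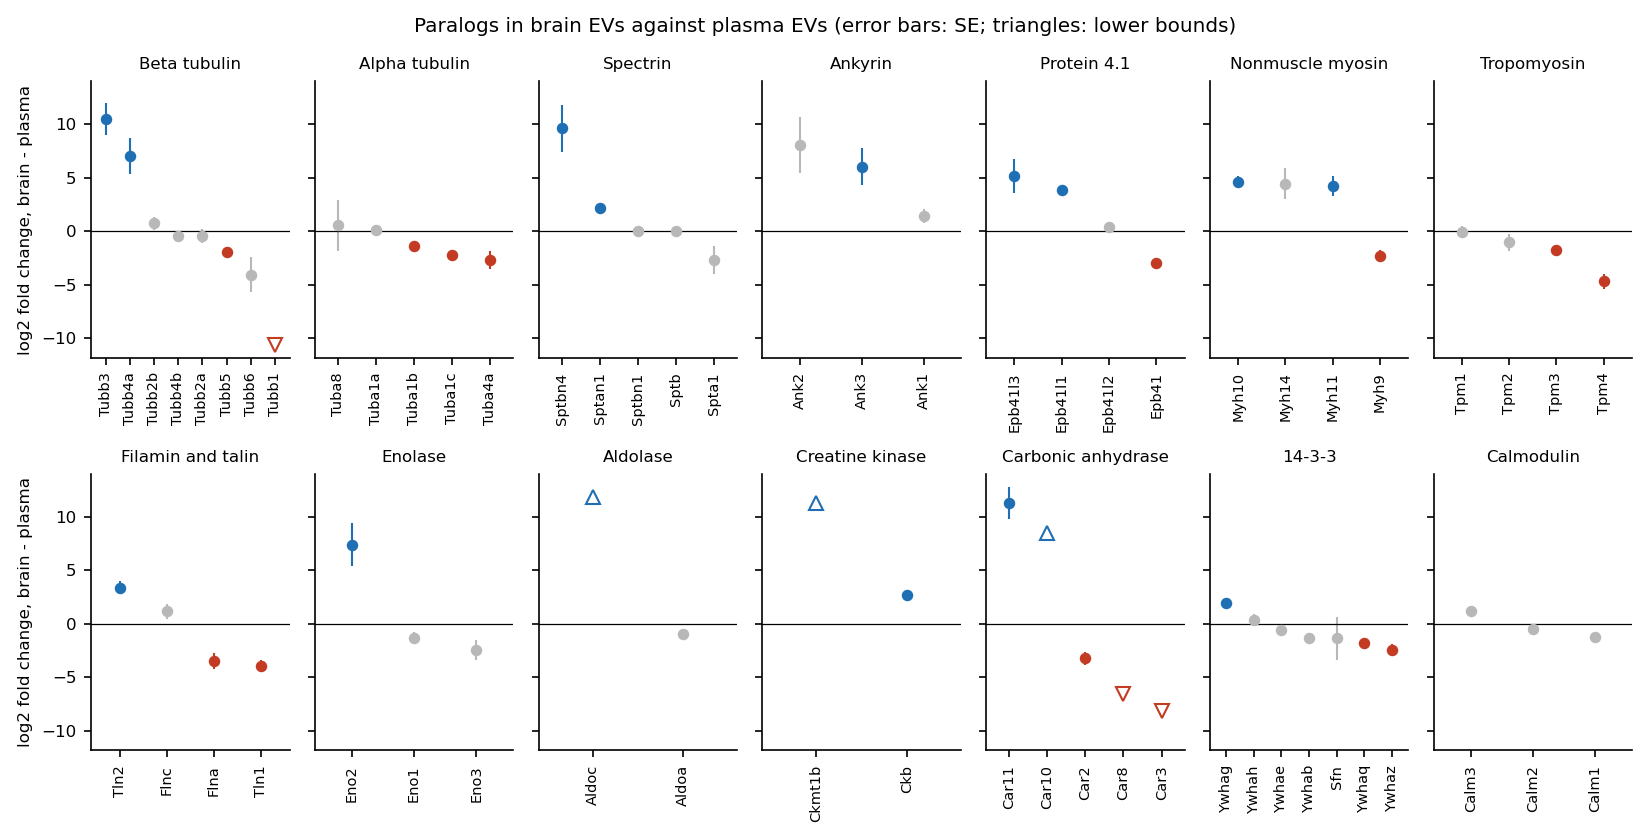
Each panel shows the reported members of one gene family, with the log2 fold change of brain over plasma EVs on the y axis and bars of 1 SE. Blue members were called higher in brain, red ones higher in plasma and grey ones were not called, and open triangles are lower bounds for genes without a read in one tissue, such as Tubb1 and Aldoc.

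A set of abundant genes did not separate the 2 preparations. Of 711 tested genes with a mean of at least 100 CPM in both tissues, 523 were not called. Among the 8 with the smallest differences were Plxna4, Mark3, Ddx24, Cfap36, Dcaf6, Nub1 and G3bp2, which span an axon guidance receptor, a kinase, an RNA helicase and a stress granule protein. Their estimates rested on the scaling and are a description of this choice of genes, not a sign of equal amounts: scaled to the total of annotated and new genes, Mark3, Ddx24, Dcaf6 and G3bp2 turned in sign, and under the annotated total without TMM Plxna4, Cfap36 and Nub1 did. Plxna4 was called higher in brain without plasma 2 (3.15).

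Promoter sequences of the groups that moved together were described from RefSeq, which gave the 250 bases before the start of 27457 rat genes on the build GRCr8. Of the 13771 tested genes, 9891 matched by symbol. Both strands were searched for 5 motifs, and matches may overlap. The motif of GATA factors was spelled AGATAA. The Krüppel-like factor box was spelled CCACCC. The cyclic AMP response element was spelled TGACGTCA, the GC-rich box of Sp factors was spelled GGGCGG, and the box of the TATA-binding protein was spelled TATAAA. The GATA motif AGATAA occurred in 10% of all promoters, in 5.55% of those of tested genes, in 4.41% of 1679 matched genes called higher in brain and in 8.73% of 1719 matched genes called higher in plasma. TATAAA occurred in 13.1%, 6.32%, 5% and 10.1% of the same sets, and GGGCGG in 32.4%, 58.8%, 57.9% and 53.2%. For CCACCC the values were 26.6%, 32.9%, 34.7% and 31.9%, and for TGACGTCA 1.7%, 2.89%, 2.62% and 2.21%. In the red cell list AGATAA was found in 6 of 23 matched promoters (Alas2, Sptb, Rhd, Fech, Add2 and Trim58), and in the platelet list in 6 of 24 (Gp1ba, Gp5, Gp6, Clec1b, Rgs18 and P2rx1). Of the genes just named, Sptb, Add2 and Gp5 were not called and P2rx1 was not tested. AGATAA was in none of 4 matched hemoglobin genes. Among neuronal lists it was in 2 of 13 matched glutamatergic genes (Shank3 and Dlgap1), and in none of 19 release, 14 cytoskeletal and 11 GABA genes. GGGCGG was found in 3, 13, 10 and 7 of these. TATAAA was found in 6 of 18 matched liver genes, and also in 8 of 19 muscle, 3 of 7 histone and 3 of 10 iron genes. Matches are a description of these letters and not binding sites, and no test was made.

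The promoters of 6 abundant called genes are shown as examples from lists whose members moved together, of which Basp1 and Cplx2 are neuronal genes higher in brain EVs and Alas2, Clec1b, Alb and Tf are red cell, platelet and liver genes higher in plasma EVs. Alas2 and Clec1b were taken for holding AGATAA and Tf for holding TATAAA. Each is printed 5′ to 3′ along the strand of its gene, from 250 bases before the start to the base before it, with the searched letters in capitals. Basp1 lies at chr2:77594298-77594547 on the minus strand, Cplx2 at chr17:10236754-10237003 on the minus strand, Alas2 at chrX:22895200-22895449 on the plus strand, Clec1b at chr4:164533859-164534108 on the plus strand, Alb at chr14:17906980-17907229 on the minus strand and Tf at chr8:112695377-112695626 on the minus strand of GRCr8.
Basp1: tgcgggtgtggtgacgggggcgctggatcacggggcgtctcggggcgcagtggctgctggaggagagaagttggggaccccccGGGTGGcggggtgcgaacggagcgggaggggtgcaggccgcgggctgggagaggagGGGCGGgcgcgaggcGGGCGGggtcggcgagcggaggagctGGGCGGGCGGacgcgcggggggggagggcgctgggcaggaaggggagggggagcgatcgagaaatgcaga
Cplx2: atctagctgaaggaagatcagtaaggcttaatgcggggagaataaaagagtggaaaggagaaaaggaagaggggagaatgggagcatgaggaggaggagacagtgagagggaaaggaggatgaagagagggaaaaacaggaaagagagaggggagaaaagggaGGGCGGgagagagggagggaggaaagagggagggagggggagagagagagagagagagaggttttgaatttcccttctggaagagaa
Alas2: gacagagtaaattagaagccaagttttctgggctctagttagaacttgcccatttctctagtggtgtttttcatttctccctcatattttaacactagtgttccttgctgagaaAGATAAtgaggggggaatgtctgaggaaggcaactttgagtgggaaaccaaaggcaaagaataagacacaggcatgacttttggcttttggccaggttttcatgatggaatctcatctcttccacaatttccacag
Clec1b: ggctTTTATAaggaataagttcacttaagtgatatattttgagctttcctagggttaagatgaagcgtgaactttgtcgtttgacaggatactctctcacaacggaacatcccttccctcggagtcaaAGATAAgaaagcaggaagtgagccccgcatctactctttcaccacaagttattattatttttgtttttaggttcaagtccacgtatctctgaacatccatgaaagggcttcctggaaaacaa
Alb: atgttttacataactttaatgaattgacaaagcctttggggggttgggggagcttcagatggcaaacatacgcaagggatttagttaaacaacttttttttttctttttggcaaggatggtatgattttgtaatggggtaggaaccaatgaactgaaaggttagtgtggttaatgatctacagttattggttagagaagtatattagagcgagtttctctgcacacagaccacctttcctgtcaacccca
Tf: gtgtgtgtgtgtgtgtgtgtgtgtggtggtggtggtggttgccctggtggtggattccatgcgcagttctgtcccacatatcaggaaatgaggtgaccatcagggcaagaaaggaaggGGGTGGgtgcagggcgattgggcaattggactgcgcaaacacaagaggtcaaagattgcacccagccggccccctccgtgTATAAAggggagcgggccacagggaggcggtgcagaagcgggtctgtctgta

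The promoter of Basp1 held 4 GC boxes, the last 2 of which overlap, and a CCACCC match on the other strand, with 30 CpG dinucleotides and a GC content of 76.8%. That of Cplx2 held 1 GC box, 2 CpG dinucleotides and a GC content of 50.8%, so the neuronal genes differed between themselves. The promoters of Alas2, Clec1b and Alb held 0, 6 and 2 CpG dinucleotides, with GC contents of 41.6%, 40% and 38.8%. AGATAA began 136 bases before the start of Alas2 and 122 bases before that of Clec1b, which also held TATAAA on the other strand, and no searched motif was found in the 250 bases before Alb. Tf held TATAAA 52 bases before its start and a CCACCC match on the other strand, with 8 CpG dinucleotides and a GC content of 58.4%, above that of Cplx2. Base composition therefore did not separate these 6 promoters by tissue. Over all matched genes, the median promoter held 17 CpG dinucleotides for genes called higher in brain and 14 for genes called higher in plasma.

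The same tissue contrast was then measured in rats that the healthy comparison had not used. These were 18 rats with a 90 min occlusion of the middle cerebral artery, with or without transplanted neural stem cells, sampled at 3 times after stroke, and their 36 brain and plasma EV libraries were fitted in 1 edgeR model of 12 tissue and group cells. Of 16817 tested genes, 4820 were higher in brain (28.7%) and 3973 in plasma (23.6%). Of the 2318 genes called higher in brain in healthy rats, 2314 had the same direction in stroke rats, 2155 were called in the same direction (93%) and 1 in the opposite one. Of the 2429 genes called higher in plasma, 2424 could be tested, 2375 had the same direction (98%), 2102 were called in the same direction (86.7%) and 2 in the opposite one. Stroke rats differ from healthy ones in more than the number of libraries, and the contrast was not tested between them.

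Levels of single genes in the 18 stroke rats were scaled over the stroke libraries alone, so they are not compared with the healthy levels. Ranges over these rats include differences of treatment and time. Map1b was at a median of 4185 CPM in the 18 brain libraries (1358 to 6206) and of 72.3 CPM in the 18 plasma libraries (40.8 to 150), without overlap. Grin1 was at a median of 391 CPM in brain (172 to 613) and of 0 CPM in plasma (0 to 12.5). Hba2 was at a median of 205 CPM in brain (31.9 to 612) and of 69510 CPM in plasma (3351 to 174700). Pf4 was at medians of 1.97 and 2360 CPM. Brain and plasma did not overlap in any of these 4 genes. Nrgn overlapped in stroke rats as well, with medians of 462 CPM in brain (232 to 1526) and 657 CPM in plasma (238 to 5317). Apoe spanned 34.8 to 10370 CPM in the stroke plasma libraries and 1619 to 6511 CPM in brain, where its median was 3297 CPM. All 78 ribosomal protein genes were again higher in plasma, all 22 release genes and 22 of 23 cytoskeletal genes of neurons were higher in brain, and 30 of 32 platelet and all 23 liver genes were higher in plasma.

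**Figure D5:**
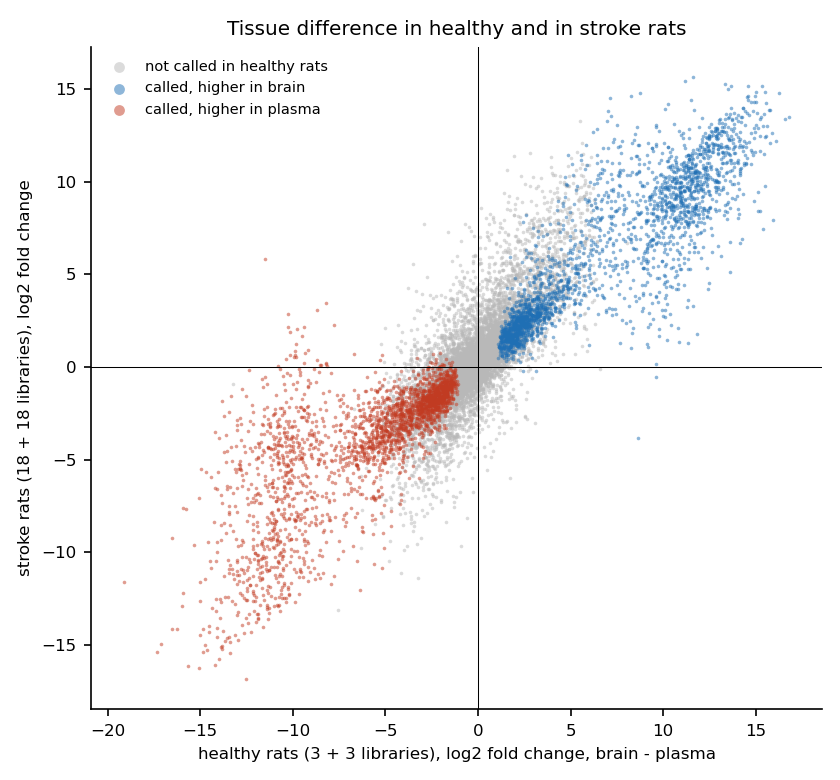
The log2 fold change of brain over plasma EVs in healthy rats (x axis, 6 libraries) is plotted against that in stroke rats (y axis, 36 libraries) for genes tested in both, coloured by the call in healthy rats. Nearly all blue genes lie above 0 and nearly all red genes below 0 on the y axis, and fitted changes of genes without reads in a tissue depend on the prior count.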

How the data were processed

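EVs were isolated from brain tissue and plasma of 3 healthy rats, and long RNA was sequenced. According to the study's methods, Bowtie2 was the aligner, Rnor_6.0 the genome, and FPKM came from StringTie. How the rows named as new genes were found, tool versions, strand setting and the treatment of reads shared between genes are not given in the sources used here. The authors deposited raw counts per gene and, in the same tables, FPKM values, which scale those counts by transcript length and depth. Rows of annotated genes were analysed, and all columns belonged to samples of the series (0 did not).

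Counts of the 6 healthy libraries were filtered by tissue with filterByExpr, scaled by TMM on annotated genes and tested with edgeR 4.0.16 (quasi-likelihood) in R 4.3.3, and p-values were adjusted over all 13771 tested genes. Levels per length used FPKM, and limma 3.58.1 on log2(FPKM + 1) with a filter on FPKM and DESeq2 1.42.0 were alternatives. The fit was tested on simulated data. Other alternatives were a rat block, a fit of all 42 mRNA libraries, other scalings and filters, and leaving out each library. The 3 rats are the replicates of both tissues, and brain and plasma with the same number came from one rat. The deviations of same-rat libraries from their tissue means correlated with r = -0.0071, 0.042 and 0.0098 over 13771 genes. Folds of genes without reads in a tissue are bounds from 3 counts over that tissue, which cover counting error only.

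The genes named are the 10 with the highest mean FPKM in each tissue, the 10 largest called changes in each direction among genes with 100 CPM or more and no overlap, up to 4 abundant members of each list and 3 called against its direction, the 8 smallest changes, genes named in the study and family members. Further list members were named after their values were seen. The comparison, the members and the 26 lists and 18 families were chosen with earlier results of these data known. Some genes that this rule names are not reported here, and they stay in the fits, the list counts and the shares.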

Additional observations from a re-analysis of the deposited data

Results flagged for a closer look

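Most counts of the brain EV libraries lay outside the annotated genes. Rows that the deposited table names as new genes, without an annotation, took 92.89%, 79.08% and 86.36% of the counts in brain 1, 2 and 3 and 28.39%, 41.72% and 38.61% in plasma 1, 2 and 3, and they stood out because no comparison of annotated genes uses them. Most of these counts fell on a few rows. Rat_newGene_47911, of 5098 bases with a GC content of 69.6%, took 39.13%, 15.76% and 34.83% of all counts in brain and 5.295%, 4.557% and 8.264% in plasma. Rat_newGene_36107, of 2801 bases with a GC content of 69.4%, took 22.03%, 17.81% and 14.94% in brain and 2.55%, 1.415% and 3.029% in plasma. Rat_newGene_52007 took 8.68%, 11.27% and 17.39% in brain and 3.352%, 2.85% and 3.053% in plasma. The brain values of these 3 rows lay above the plasma values in every library. Rat_newGene_148012 took 4.982%, 14.52% and 7.097% in brain and 4.517%, 1.826% and 7.849% in plasma, with overlap. Rat_newGene_1, of 15659 bases with a GC content of 38.7%, took 9.403%, 8.224% and 7.202% in brain and 8.507%, 22.94% and 12.99% in plasma, again with overlap. Stretches of Rat_newGene_36107 and Rat_newGene_1 (120 bases of each deposited sequence) are printed so that they can be looked up. What these rows are was not determined here, and their name does not show that they are new genes. Their position in the genome was not given with the sequences, and the cause of the difference was not tested.
Rat_newGene_36107: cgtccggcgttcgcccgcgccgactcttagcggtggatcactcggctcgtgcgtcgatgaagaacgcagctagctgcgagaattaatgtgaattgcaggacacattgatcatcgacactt
Rat_newGene_1: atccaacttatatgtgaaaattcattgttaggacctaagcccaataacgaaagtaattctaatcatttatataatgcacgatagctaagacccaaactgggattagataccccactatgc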

How the results depend on the processing

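All annotated-gene counts rest on 3 rats and on brain libraries with few annotated counts. In place of 4747 genes (2318 higher in brain, 2429 in plasma), the rat as a block gave 2346 (1257 and 1089). Scaling to the total of annotated and new genes gave 5720 (1215 and 4505). limma on log2(FPKM + 1) gave 7750 (431 and 7319), with a pseudocount of 0.1 it gave 8119 (471 and 7648), and with any FPKM above 0 it gave 7199 (571 and 6628). The summed FPKM of annotated genes was 4251.5, 11922.3 and 8098.2 in brain 1, 2 and 3. In plasma 1, 2 and 3 it was 254538.2, 133458.7 and 206299.4. Its part in the limma results and the cause of the differences between settings were not tested. Leaving out 1 library gave 2792 to 5269 genes, 1430 to 2923 higher in brain and 1362 to 2346 in plasma, with the lowest totals without brain 3 and the highest total and brain count without plasma 2. DESeq2 gave 6537 (3179 and 3358) and the fit of all 42 libraries 3736 (1909 and 1827). The difference in share, brain minus plasma, was -16.21 points of summed FPKM instead of -7.41 points of counts for hemoglobin genes, -23.43 instead of -11.93 for ribosomal protein genes and 2.219 instead of 2.62 for neuronal cytoskeletal genes. Over all genes, limma called 24 in the direction opposite to the main fit at a pseudocount of 0.1 and 38 at a pseudocount of 1. With any FPKM above 0 it called 15 in the opposite direction. Among the named genes alone, the called ones that reversed at pseudocounts of 0.1 and 1 were Ptms (-1.30 and -1.29), Col4a1 (-0.55 and -0.46), Sptan1 (-0.55 and -0.51), Ckb (-0.12 and -0.12) and Ywhag (-0.91 and -0.80). Their values at a pseudocount of 1 were the same when any FPKM above 0 was kept. Ptms (-0.18) also reversed when scaled to all rows. Of the named genes tested, the block left 175 on their side of the threshold and ended 24 calls, and it changed no other call among them.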
